A study of Ovis aries with 23 samples.

Results

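Prolactin-rich (PRL-rich) and prolactin-poor (PRL-poor) samples are pars tuberalis (PT) RNA-seq libraries that hold a large or a small share of their counts in PRL, the gene for the hormone prolactin. Members were chosen by the measured PRL share alone. All 23 samples were ranked by that share, the sample at the median was left out, and the 11 samples above it were compared with the 11 below it, so 22 of 23 samples entered the comparison. The classes come from the measured counts and are not groups of the study. PRL was therefore taken out of the counts and of the tests, and its own values are given only as a description. All animals were castrate male Scottish blackface sheep. They were held on short photoperiods (SPs, 5 samples, called SP) or moved to long photoperiods (LPs) for 1, 7, or 28 days (6 samples each, called LP day 1, LP day 7, and LP day 28), and the genotype was not manipulated. Each sample is a piece of dissected tissue and not a sorted cell population, and how many animals went into 1 sample is not given in the sources used here.

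The PT is the part of the pituitary that wraps the stalk and carries melatonin receptors. Its own endocrine cells are thyrotrophs, which make the α subunit CGA and, on LPs, the thyrotropin subunit TSHB. Prolactin is made by lactotrophs of the neighboring pars distalis, beside somatotrophs (growth hormone, GH1), corticotrophs (POMC), and gonadotrophs (LHB and FSHB). The pituitary transcription factor POU1F1, also called PIT1, is needed for lactotrophs, somatotrophs, and pars distalis thyrotrophs and binds the promoters of PRL and GH1.

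Total counts ranged from 307952 to 4413929. With PRL kept in the total, 3 counts corresponded to 9.74 CPM (counts scaled to a common library size) in the shallowest library, LP day 1 sample 4. In the remaining libraries they corresponded to no more than 1.62 CPM, a limit that covers counting error only. On the scale without PRL, used for the CPM values of genes here, 3 counts in LP day 1 sample 4 are 9.84 CPM. LP day 1 samples 3 and 4, both PRL-poor, had a chi-square of 1.14 per gene, where 1 is counting noise, the lowest value of any pair within a group. The next lowest values, 1.75 and 3.37, also belong to pairs with the shallow sample 4, with samples 6 and 1. Its pairs with samples 5 and 2 had 5.62 and 7.16. The parts of its depth and of a likeness to sample 3 in these values were not tested. Samples 3 and 4 were kept as 2 samples, and the calls with both summed to 1 sample are given with the other left-out samples. CGA was present in every sample (4282 to 12782 CPM), as was TSHB (51.8 to 1739 CPM). MTNR1A, the melatonin receptor, was listed at 0 to 45.8 CPM. GH1, POMC, LHB, and FSHB were also counted in every sample, GH1 at 5038 to 52218 CPM and POMC at 835 to 9988 CPM. These libraries thus hold RNA of pars distalis endocrine genes together with that of the PT.

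PRL had the most counts in each of the 23 samples. The PRL-poor samples held between 2.35% and 6.42% of their counts in PRL, with a median of 3.91%. The PRL-rich samples held between 8.72% and 21.03%, with a median of 13.4%. At the boundary stood LP day 7 sample 4 (6.42%) on the poor side, the median sample, LP day 7 sample 1 (8.36%), and SP sample 2 (8.72%) on the rich side. These shares are what the ranking used, so no test was made on them. The lowest share was in LP day 7 sample 5, and the highest 2 were in LP day 28 sample 4 (19.5%) and LP day 28 sample 3. The gene with the second most counts was GH1 in 10 of 11 samples of each class and CGA in the remaining sample of each.

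**Figure D1:**
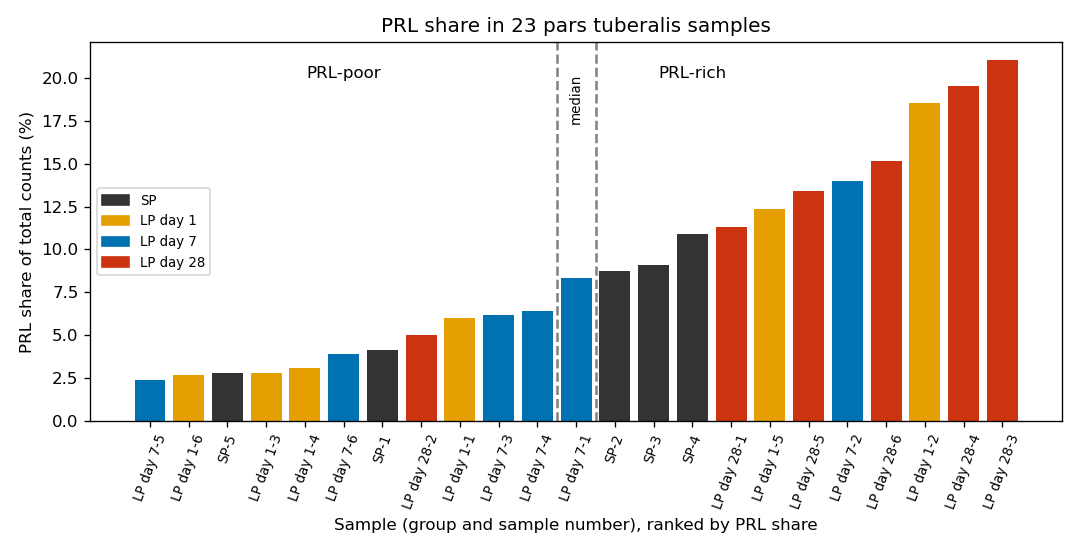
PRL share of total counts (percent, vertical axis) in each of the 23 samples ordered by rank (horizontal axis), with bars colored by photoperiod group and dashed lines around the median sample. Shares run from 2.35% to 21.03%, and 5 of the 11 PRL-rich samples are LP day 28 samples.

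Photoperiod groups were unevenly spread over the classes. SP had 3 PRL-rich and 2 PRL-poor samples, LP day 1 had 2 and 4, LP day 7 had 1 and 4, and LP day 28 had 5 and 1. The group label was therefore a covariate in every fit unless stated. In LP day 7 the PRL-rich class is LP day 7 sample 2 alone, and in LP day 28 the PRL-poor class is LP day 28 sample 2 alone. In total, odd and even sample numbers were spread evenly (5 odd and 6 even in the PRL-rich class, 6 and 5 in the PRL-poor class). Within groups they were not. Odd numbers held no PRL-rich LP day 7 and no PRL-poor LP day 28 sample, and even numbers held no PRL-poor SP sample. The totals were also even for 2 library sets made from the sample numbers. Set A (sample numbers 1 to 3) gave 6 PRL-rich and 5 PRL-poor samples, and set B (numbers 4 to 6) gave 5 and 6. Within set B, all LP day 7 samples were PRL-poor and all LP day 28 samples were PRL-rich. With group as a covariate, the class effect in set B therefore rests on SP samples 4 and 5 and LP day 1 samples 4, 5, and 6. Alignment folder numbers in the file headers repeat between the sets but not within either one. No label says that the sets are batches. Counts without PRL averaged 2844973 ± 532184 (SD, n = 11) in PRL-rich and 2747139 ± 954482 (SD, n = 11) in PRL-poor samples. That difference did not pass an exact two-sided permutation test with class labels exchanged within groups (p = 0.767). With all samples thinned to 298483 counts, 13735 ± 117 genes were detected in PRL-rich and 13778 ± 111 in PRL-poor samples (SD, n = 11 each), again short of the threshold in the same exact permutation test (p = 0.297, 4500 arrangements).

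A small set of genes differed between the classes. At an FDR under 0.05 in edgeR's quasi-likelihood test, 18 of 14967 tested genes were called (0.120%). Of these, 17 were higher (0.114%) and 1 was lower (0.00668%) in PRL-rich samples. The split by direction depended on the tool and the filter, since DESeq2 called 34 higher and 19 lower genes and edgeR without a filter on low counts called 17 and 5. At an unadjusted p under 0.05, 1214 genes differed (8.11%), of which 596 were higher (3.98%) and 618 were lower (4.13%), and the median log2 fold change over all tested genes was 0.0032. No gene of the 14967 had classes without overlap over all 22 samples. Within each of the 4 groups taken by itself, 11 of the 18 called genes were higher in every PRL-rich than in every PRL-poor sample (17 of all tested genes, 0.114%), and 1 was lower in every one (8 of all tested genes, 0.0535%). These counts come from the samples behind the calls and describe them. Because these are pieces of tissue, more cells of a type and more RNA per cell cannot be told apart in any of these values.

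A total of 5 called genes carry a symbol, and all 5 were higher in PRL-rich samples. Symbols are known here only for the genes that the study listed as changed, partly on these same samples (1071 of the tested genes), so the named genes are no random draw from the called ones. ASB4 (ENSOARG00000003383), which encodes a substrate adaptor of a ubiquitin ligase with ankyrin repeats and a SOCS box, had 15.7 to 45.0 CPM (median 27.5) in PRL-rich and 6.83 to 18.5 CPM (median 9.84) in PRL-poor samples. The 2 classes overlapped only slightly, since 8 of 11 PRL-rich samples lay above the highest PRL-poor sample. On SPs its values were 15.7, 16.2, and 30.5 CPM in the PRL-rich samples and 6.83 and 8.50 CPM in the PRL-poor ones. At LP day 1 the PRL-rich samples had 18.1 and 41.7 CPM and the PRL-poor samples 8.45, 9.07, 9.84, and 11.9 CPM, the 9.84 CPM being 3 counts in the shallowest library. At LP day 28 the only PRL-poor sample had 18.5 CPM, below all 5 PRL-rich samples (20.6, 23.6, 27.5, 35.2, and 45.0 CPM). With group as a covariate, ASB4 was 2.55-fold higher in PRL-rich samples (log2 fold change 1.35, SE 0.21, FDR 0.00662, edgeR).

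COL5A2 (ENSOARG00000016440), a chain of type V collagen, had 96.6 to 507 CPM (median 273) in PRL-rich and 82.0 to 173 CPM (median 116) in PRL-poor samples. All PRL-rich samples but SP sample 4, which had 96.6 CPM, lay above the whole PRL-poor class. Its log2 fold change was 1.05 (SE 0.17, FDR 0.00999, edgeR). The fibrillar collagens of the connective tissue list, which does not hold COL5A2, were not called. COL3A1 differed by 0.34 (SE 0.14, FDR 0.479, edgeR), COL1A1 by 0.26 (SE 0.15), and COL1A2 by 0.09 (SE 0.12) on the log2 scale. In set A these 3 collagens stood at 0.71, 0.59, and 0.40 and in set B at -0.44, -0.51, and -0.46 (COL3A1, COL1A1, and COL1A2), and the difference between sets was not tested. COL5A2 stood at 1.15 (SE 0.23) in set A and at 0.71 (SE 0.27) in set B. All these set B values rest on the SP and LP day 1 samples of that set.

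SLC17A9 (ENSOARG00000011782), the transporter that loads nucleotides into secretory vesicles, had 9.35 to 53.8 CPM (median 26.8) in PRL-rich and 4.97 to 17.3 CPM (median 9.84) in PRL-poor samples. That PRL-poor median is the value of LP day 1 sample 4, from 3 counts. The 3 PRL-rich samples inside the PRL-poor range were SP samples 2 and 4 and LP day 1 sample 5. Its log2 fold change was 1.21 (SE 0.21, FDR 0.0122, edgeR). SIX6 (ENSOARG00000021128), a homeobox transcription factor of eye, hypothalamus, and pituitary development, had 74.7 to 138 CPM (median 93.9) against 33.2 to 84.5 CPM (median 53.5). Only LP day 7 sample 3, with 84.5 CPM, reached into the PRL-rich range from below, and the log2 fold change was 0.86 (SE 0.15, FDR 0.0122, edgeR). OMYHCS (ENSOARG00000019316) had 21.6 to 66.9 CPM (median 36.8) against 14.3 to 43.6 CPM (median 28.2), so most samples of the classes overlapped. Its log2 fold change was 0.77 (SE 0.16, FDR 0.0454, edgeR), and it was called in 6 of 22 fits that each left out 1 sample. ASB4 was called in all 22 of these fits, COL5A2 and SIX6 in 21, and SLC17A9 in 20.

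Of the 13 called genes without a symbol, ENSOARG00000011618 had the lowest p. It stood at 8.58 to 24.7 CPM in PRL-rich and 2.25 to 12.8 CPM in PRL-poor samples (log2 fold change 1.45, SE 0.22, FDR 0.00662, edgeR). ENSOARG00000017850 had 328 to 630 CPM against 58.7 to 338 CPM (1.37, SE 0.23, FDR 0.0122, edgeR). The only called gene lower in PRL-rich samples, ENSOARG00000017123, had 3.86 to 15.9 CPM (median 9.05) against 9.43 to 55.8 CPM (median 20.9). Its highest value, 55.8 CPM, is 17 counts in the shallowest library, LP day 1 sample 4, and the next highest was 42.2 CPM in SP sample 1. Every PRL-rich sample was below the PRL-poor median, and the log2 fold change of this gene was -1.38 (SE 0.26, FDR 0.0184, edgeR). It was called in 18 of 22 fits that each left out 1 sample and was not called with limma voom (FDR 0.170). These 3 were singled out after their values were seen.

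**Figure D2:**
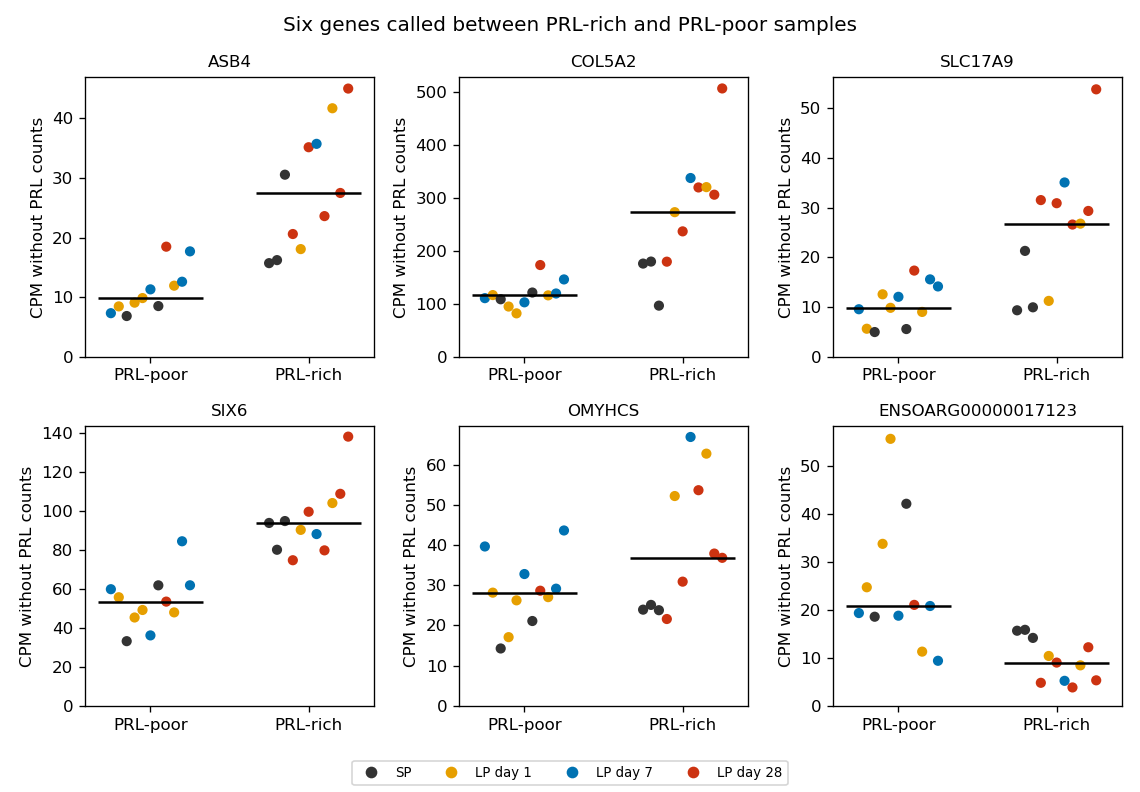
CPM without PRL counts (vertical axes, from 0) of the 5 called genes with a symbol and of the called gene lower in PRL-rich samples, in the 11 PRL-poor and 11 PRL-rich samples (points, colored by photoperiod group; horizontal lines are class medians). For ASB4 the medians are 9.84 and 27.5 CPM, and for ENSOARG00000017123 they are 20.9 and 9.05 CPM.

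The calls depended on few libraries. Without LP day 1 sample 2, 5 genes were called, all of them among the 18, and ASB4 (1.17, FDR 0.0419, edgeR) and COL5A2 (0.97, FDR 0.0419, edgeR) were 2 of these. With LP day 1 samples 3 and 4 summed to 1 sample, 13 of the 18 were called and no other gene, and OMYHCS was among the 5 that were not (FDR 0.0672, edgeR). Without LP day 7 sample 2, the only PRL-rich sample of its group, 11 genes were called. All 18 kept their sign in each of these fits and within either library set alone. They were picked on these same samples, so kept signs only describe the calls. Of the 18, none passed in set A, where no gene of all tested did (500 at an unadjusted p under 0.05, edgeR), and 1 passed in set B, ENSOARG00000017850 (FDR 0.0196, edgeR), where 5 genes passed in all. Without the LP day 1 group none of the 18 passed in edgeR (800 of all tested genes at an unadjusted p under 0.05). Without LP day 28 the only 2 genes called were ASB4 and COL5A2, and without SP they were COL5A2 and ENSOARG00000017850, so that ASB4 lost its call without LP day 1 or SP, and SLC17A9 and SIX6 lost theirs without LP day 1, LP day 28, or SP. A split at the median of each group in place of that of all samples, which puts equal numbers of each group into both classes, called 0 genes in edgeR (lowest FDR 0.0779, 1325 genes at an unadjusted p under 0.05). All 18 had the same sign and an unadjusted p under 0.05 in that fit as well. Most samples keep their class in that split, and the 18 were picked on them, so this is no independent check.

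No member of the gene lists passed the test, with 155 list members tested (16 higher and 7 lower at an unadjusted p under 0.05, edgeR, against 3.98% and 4.13% of all tested genes). DESeq2 called 3 of them (FSHB, SCG3, and DIO2). The pituitary lists nevertheless lay on different sides of 0, with medians of 0.59 for the PIT1 lineage, 0.44 for corticotrophs and melanotrophs, -0.43 for gonadotrophs, and -0.18 for PT thyrotrophs on the log2 scale, against 0.0032 over all tested genes. The members of these lists were paired with identifiers through the genes that the study listed as changed, so they are not independent of these samples. The lists are short, and their medians were not tested.

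Of the PIT1 lineage list, 0 of 6 measured members were called, 5 had positive values, and 4 had an unadjusted p under 0.05 (background 3.98% for higher values). POU1F1 had 103 to 314 CPM (median 177) in PRL-rich and 43.5 to 195 CPM (median 112) in PRL-poor samples. On SPs it had 153, 163, and 171 CPM in PRL-rich samples and 43.5 and 137 CPM in PRL-poor ones. At LP day 1 it had 103 and 314 CPM in the PRL-rich samples and 72.2, 85.5, 112, and 117 CPM in the PRL-poor ones, so there LP day 1 sample 2 stood far above the rest and LP day 1 sample 5 within them. At LP day 7 the PRL-rich sample (177 CPM) lay within the PRL-poor range (95.3, 115, 154, and 195 CPM), whereas at LP day 28 all 5 PRL-rich samples (152 to 297 CPM) lay above the PRL-poor one (96.1 CPM). Its log2 fold change of 0.88 (SE 0.21, 95% confidence interval 0.44 to 1.32) had an FDR of 0.141 in edgeR. Without LP day 1 sample 2 it was 0.63 (FDR 0.426, edgeR).

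GH1, the somatotroph hormone, overlapped widely between the classes. It had 8405 to 52218 CPM (median 24969) in PRL-rich and 5038 to 43951 CPM (median 18711) in PRL-poor samples. The highest value was in LP day 1 sample 2 and the next highest in LP day 7 sample 3, which is PRL-poor. The difference was 0.64 (95% confidence interval 0.05 to 1.23, FDR 0.550, edgeR) and 0.29 (FDR 0.831, edgeR) without LP day 1 sample 2. NEUROD4, a bHLH factor of early pituitary cell types, had 13.6 to 24.1 CPM against 7.14 to 19.2 CPM (0.46, SE 0.17, FDR 0.414, edgeR). TRHR, the receptor for thyrotropin-releasing hormone, differed by 0.78 (SE 0.37), and ESR1, the estrogen receptor, by -0.13 (SE 0.22).

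Gonadotroph genes pointed the other way in all 4 measured members, 0 of which were called, with 2 lower at an unadjusted p under 0.05 (background 4.13%). FSHB, the specific subunit of follicle-stimulating hormone, had 161 to 585 CPM (median 430) in PRL-rich and 370 to 1147 CPM (median 709) in PRL-poor samples. On SPs the PRL-rich samples had 449, 530, and 585 CPM and the PRL-poor samples 709 and 942 CPM. At LP day 1 the PRL-rich samples had 161 and 446 CPM and the PRL-poor samples 564, 855, 1063, and 1147 CPM, where the 2 highest values belong to samples 3 and 4, the pair with the lowest chi-square. Only in LP day 7 did the classes overlap, with 431 CPM against 370 to 770 CPM. Its log2 fold change of -0.93 (SE 0.20, FDR 0.0635, edgeR) missed the threshold and passed it in 8 of 42 alternatives fixed with the design, among them DESeq2 (FDR 0.0228). LHB, the luteinizing hormone subunit, had 1708 to 5187 CPM against 2148 to 9870 CPM (-0.40, SE 0.24, FDR 0.720, edgeR). GNRHR, the receptor through which GnRH acts on these cells, had 14.4 to 84.6 CPM against 39.9 to 118 CPM (-0.47, SE 0.23, FDR 0.613, edgeR).

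Corticotroph and melanotroph genes gave 0 calls among 5 members, 2 of which were higher at an unadjusted p under 0.05 (background 3.98%). POMC, the precursor of ACTH and α-MSH, had 2775 to 9988 CPM against 835 to 5834 CPM, a difference of 0.64 (SE 0.27, FDR 0.511, edgeR). The 2 library sets gave unlike values for it, 0.11 (SE 0.24) in set A and 2.32 (SE 0.25, FDR 0.00268, edgeR) in set B. The set B values here rest on its SP and LP day 1 samples alone, among them the shallowest library. The difference between the sets was not tested. PCSK2, a convertase that cleaves POMC, followed with 0.31 (SE 0.30) in set A and 2.15 (SE 0.37, FDR 0.0862, edgeR) in set B, and 0.81 (SE 0.29, FDR 0.414, edgeR) over both. TBX19, the corticotroph transcription factor, stood at -0.05 (SE 0.21), and PCSK1, the other POMC convertase, at -0.30 (SE 0.29).

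The PT thyrotroph list showed no called difference in any of 9 measured members, 7 of them with negative values. Its genes are not specific to PT cells. The paper also reports TSHB protein in pars distalis thyrotrophs and places CHGA in pars distalis gonadotrophs and somatotrophs. With pars distalis RNA in these libraries, the values cannot be credited to PT thyrotrophs alone. CGA had 4282 to 11443 CPM in PRL-rich and 6223 to 12782 CPM in PRL-poor samples, a log2 fold change of -0.12 (95% confidence interval -0.44 to 0.20). CHGA, a secretory granule protein, stood at -0.19 (95% confidence interval -0.49 to 0.11). TSHB, with class medians of 755 and 320 CPM, stood at 0.10 (95% confidence interval -0.59 to 0.79) once the photoperiod group was taken into account. EYA3, the coactivator of TSHB, ranged from 22.5 to 518 CPM in PRL-rich and from 33.8 to 419 CPM in PRL-poor samples (-0.34, 95% confidence interval -1.67 to 0.99), and the median sample, outside both classes, had 1062 CPM. For TSHB and EYA3 the intervals are wide enough to hold a 1.5-fold difference either way.

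**Figure D3:**
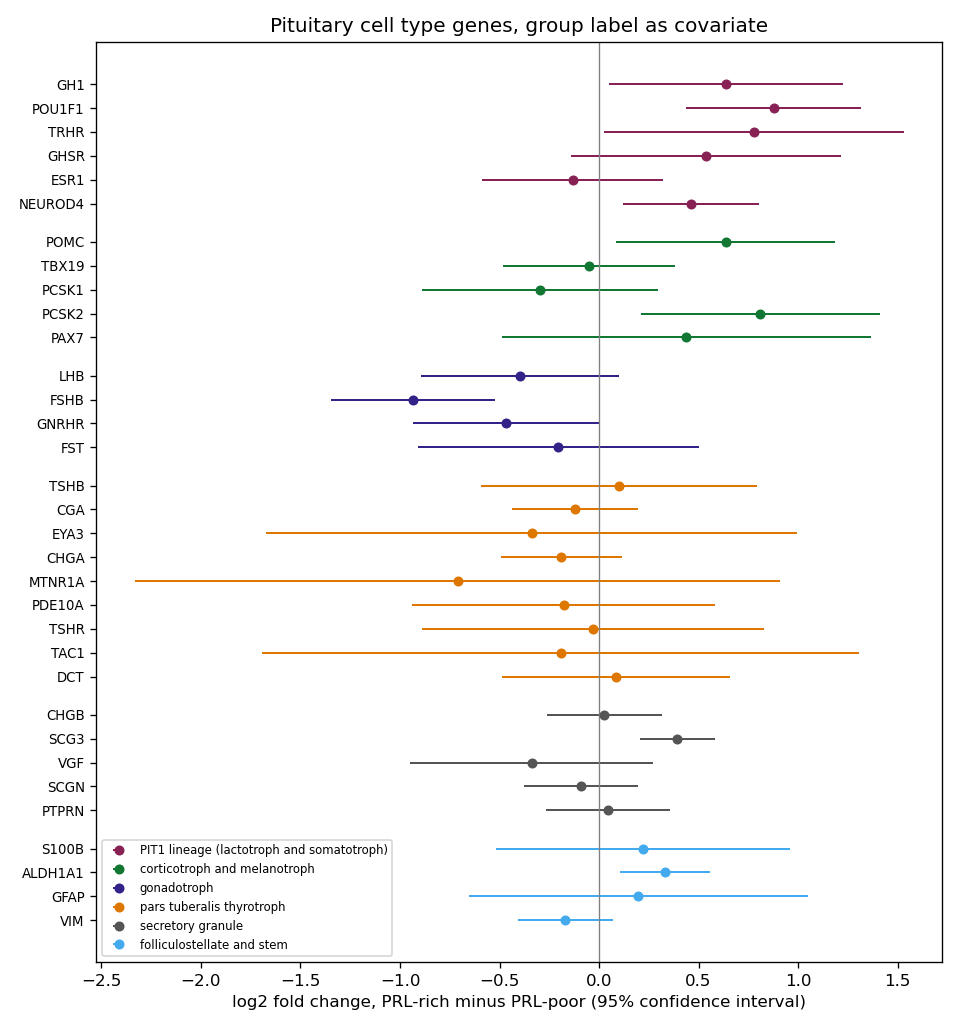
Log2 fold change of PRL-rich minus PRL-poor samples (points) with 95% confidence intervals (lines) for the measured members of 6 pituitary gene lists, colored by list, n = 11 samples per class. POU1F1 (0.88) and FSHB (-0.93) lie on either side of 0, and none of the genes drawn was called.

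Among secretory granule genes, 0 of 5 were called. SCG3, secretogranin III, which sorts hormone cargo into granules, had 590 to 1033 CPM (median 837) in PRL-rich and 486 to 760 CPM (median 573) in PRL-poor samples. The classes overlapped, and the log2 fold change was 0.39 (SE 0.09, FDR 0.109, edgeR). CHGB and PTPRN, also granule proteins, stood at 0.03 (SE 0.14) and 0.04 (SE 0.15). VGF, a granule protein cleaved to neuropeptides, stood at -0.34 (SE 0.30), and SCGN, a calcium-binding protein of endocrine cells, at -0.09 (SE 0.14). Folliculostellate genes gave 0 calls in 4 members. ALDH1A1, which makes retinoic acid, stood at 0.33 (SE 0.11, FDR 0.361, edgeR) and VIM, an intermediate filament, at -0.17 (SE 0.12).

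Markers of cells beyond the endocrine pituitary were present in both classes at overlapping levels. The 16 neuron markers summed to 788 to 2161 CPM in PRL-rich and 863 to 1717 CPM in PRL-poor samples, with 0 members called and a median log2 fold change of 0.11. For the 11 glia and tanycyte markers the sums were 182 to 921 CPM and 177 to 524 CPM, with 0 called and a median of 0.32. DIO2, the deiodinase that activates thyroid hormone and the tanycyte gene of that list, had 6.92 to 26.8 CPM against 4.97 to 34.1 CPM (0.96, SE 0.24, FDR 0.164, edgeR), and MBP, a myelin protein, had 14.2 to 300 CPM against 16.4 to 90.8 CPM (0.93, SE 0.45, FDR 0.606, edgeR). Ependyma and choroid plexus genes (9 tested) had a median of -0.0016, connective tissue genes (14) -0.03, endothelial and mural genes (5) -0.30, and blood and immune genes (11) 0.23, each with 0 calls. All 5 endothelial and mural genes had negative values, MYL9 at -0.30 (SE 0.11) and TPM2 at -0.32 (SE 0.15), both contractile genes of mural cells. Of the immune genes, LCP1, a leukocyte actin bundler, stood at 0.37 (SE 0.13, FDR 0.381, edgeR), CD74 at 0.32 (SE 0.25), and B2M at 0.10 (SE 0.18). The part of these cell types in the results above was not tested.

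Lists for cell states also gave 0 calls each. Cell division genes (10 tested) had a median of 0.36, and TOP2A, a topoisomerase of dividing cells, stood at 0.54 (SE 0.20, FDR 0.431, edgeR), whereas EZH2 stood at -0.38 (SE 0.28). Interferon response genes (13) had a median of 0.21, and their sum ran from 267 to 1884 CPM in PRL-rich and from 261 to 8200 CPM in PRL-poor samples, and the highest MX1 values were 2353 CPM in LP day 7 sample 3 (PRL-poor) and 551 CPM in SP sample 3 (PRL-rich). The remaining medians were -0.12 for clock genes (12), -0.03 for endoplasmic reticulum genes (8), -0.17 for immediate early genes (9), and 0.06 for ribosomal protein genes (4). The 4 paired genes of the mitochondrial genome were listed at 0 in every sample and were not tested.

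Used as a continuous measure in place of 2 classes, the log2 PRL share separated more genes. Over all 23 samples, 61 of 15018 genes changed with the share (0.406%), 43 rising (0.286%) and 18 falling (0.120%), at an FDR under 0.05 in edgeR. All 18 genes called between the classes were among them. Slopes here are the change in log2 CPM for each doubling of the PRL share, with group as a covariate. ASB4 rose by 0.76 for each doubling (SE 0.08, FDR 1.87e-05, edgeR). Of the fixed lists, 3 genes passed and all 3 rose, namely POU1F1 (0.53, SE 0.08, FDR 0.00127, edgeR), SCG3 (0.23, SE 0.04, FDR 0.00235, edgeR), and DIO2 (0.55, SE 0.11, FDR 0.0129, edgeR). SCG3 passed in all 23 fits that left out 1 sample, and POU1F1 and DIO2 passed in 22. GH1 had a slope of 0.37 (SE 0.14, FDR 0.298, edgeR) and FSHB one of -0.43 (SE 0.11, FDR 0.0732, edgeR).

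The other genes with a symbol that rose with the share fall outside the naming rule and were picked after their values were seen. GPR101, an orphan G protein-coupled receptor whose duplication in humans causes growth hormone and prolactin excess, had 1.496 to 16.7 CPM in PRL-rich and 0 to 6.29 CPM in PRL-poor samples, and its slope was 1.09 (SE 0.17, FDR 0.00114, edgeR). ENPEP, aminopeptidase A, which cleaves angiotensin II, had 9.66 to 105 CPM against 2.48 to 32.8 CPM (slope 0.86, SE 0.16, FDR 0.00761, edgeR). AGTR1, the type 1 receptor for angiotensin II, had 4.49 to 41.8 CPM against 0 to 11.49 CPM (slope 0.62, SE 0.14, FDR 0.0356, edgeR). ETV1, an ETS-family transcription factor, had 79.5 to 219 CPM against 53.7 to 135 CPM (slope 0.43, SE 0.07, FDR 0.000968, edgeR). The slopes of LRRN1, ANG-1, and USH1C were 0.45, 0.46, and 0.38, and USH1C had 49.0 to 82.8 CPM against 19.7 to 51.2 CPM. None of the genes named in this paragraph was called between the classes, with FDRs from 0.0707 (USH1C) to 0.333 (GPR101) in edgeR. In the continuous fit, GPR101, ETV1, LRRN1, and ANG-1 passed in each of the 23 fits that left out 1 sample, ENPEP in 22, USH1C in 21, and AGTR1 in 14. Without LP day 1 sample 2 the number of genes called was 29, without LP day 1 sample 6 it was 39, and without LP day 28 sample 2, the only PRL-poor sample of its group, it was 127. The continuous fit was not refitted with a whole group left out. Between the classes, GPR101, ETV1, LRRN1, and ANG-1 differed by 0.17, 0.16, 0.17, and 0.72 (log2) within odd numbers. Within even numbers they differed by 1.99, 0.98, 1.10, and 0.77. For ENPEP, USH1C, and AGTR1 the values were 1.18, 0.39, and 1.11 (odd) and 1.36, 0.92, and 0.77 (even).

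**Figure D4:**
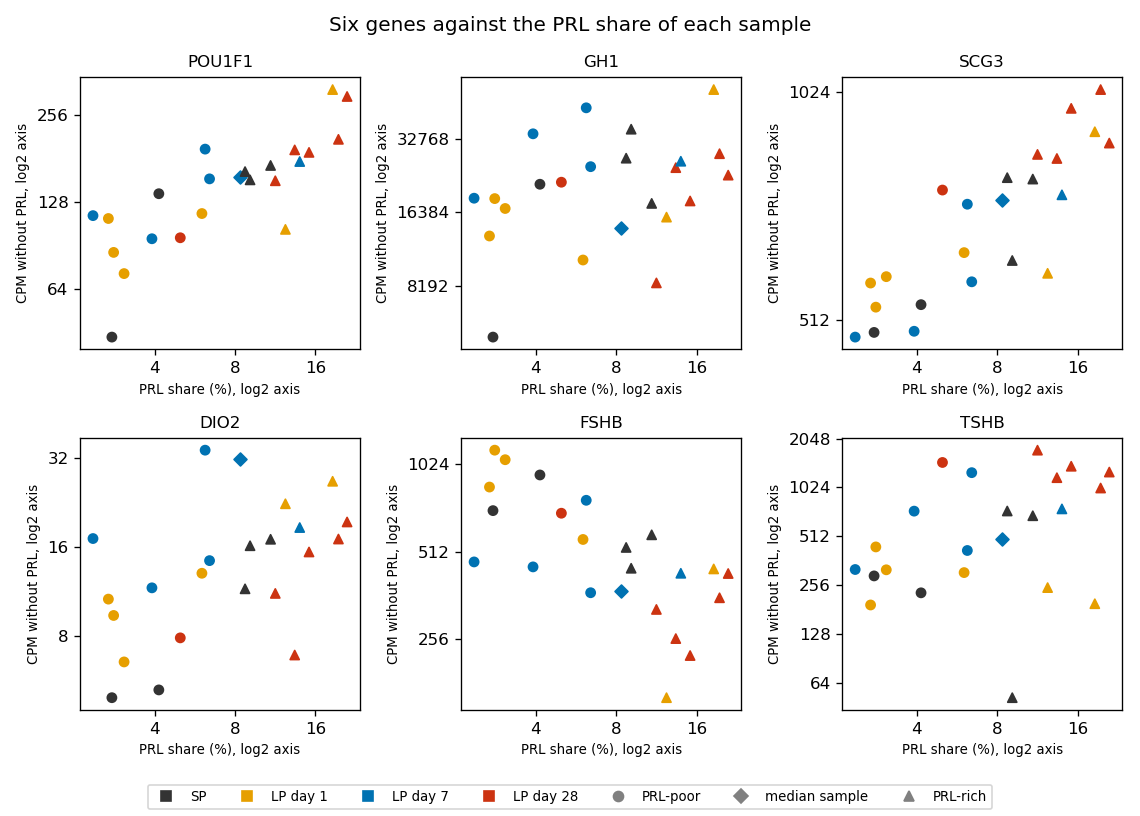
CPM without PRL counts (vertical axes, log2) against the PRL share in percent (horizontal axes, log2) for 6 genes in all 23 samples, colored by group and shaped by class. POU1F1, SCG3, and DIO2 passed the test for a change with the share (slopes of 0.53, 0.23, and 0.55), whereas GH1, FSHB, and TSHB (0.37, -0.43, and 0.05) did not.

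Whether the PRL-rich effect differed between photoperiod groups was tested with a class by group interaction, which called 1 of 14967 genes (0.00668%), ENSOARG00000008517 (FDR 8.17e-05, edgeR). Its 2 PRL-poor SP samples, samples 1 and 5, had 15.5 and 14.9 CPM, and the other 21 samples had 110 to 202 CPM. Both low values are thus those of the PRL-poor class on SPs. With 1 sample in a class in LP day 7 and in LP day 28, the test had little to compare in those groups.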

How the data were processed

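The authors deposited whole-number counts of reads per Ensembl sheep gene for 23 PT samples. Their processing notes name Bowtie, HTSeq, and the genome build Oar_v3.1, whereas the file headers have another program's form, so the counting program was not settled. Groups were read from the sample titles. The members and gene lists were chosen with earlier results of these data known. PRL was taken out of counts and library sizes, genes were kept where 11 or more samples exceeded 1 CPM, and TMM-normalized counts were fitted in edgeR 4.0.16 (R 4.3.3) with group and class, using the quasi-likelihood test and Benjamini-Hochberg FDR. Standard errors were derived from the F statistic and the size of the log2 fold change. CPM values, apart from the limits given with the total counts, leave out PRL and are TMM normalized over 23 samples. The fits were tested on simulated data. Alternatives used DESeq2 1.42.0 and limma 3.58.1, other normalizations, filters, covariates, and splits, and samples or groups left out. Library sets, odd and even numbers taken alone, and leave-outs of the continuous fit were added after seeing the data. Nothing says that samples of a group are separate animals, so p-values measure the spread between these samples. Reads lack molecular identifiers, so depth limits cover counting error only.

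Symbols come from the study's lists of changed genes (1259 identifiers), and 160 of 205 list symbols were paired. Named genes are members of the lists that were called, up to 4 members of each list with the highest mean CPM, up to 12 called genes in each direction with a symbol and at least 5 CPM, and up to 6 interaction genes with a symbol, and TRHR, DIO2, MTNR1A, and genes named from the continuous fit alone were added after seeing values. No coordinates or sequences are given, since no annotation of this build was used here. Sample numbers were checked for pairing. Of 33 same-numbered pairs from different groups, 6 had deviations from the group means that correlated above 0.1 (median 0.0053), so the numbers were not taken to pair samples.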

Additional observations from a re-analysis of the deposited data

Results flagged for a closer look

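Within photoperiod groups of 5 or 6 samples, the highest and lowest values of the PRL share, the total count, and 11 genes were compared with the rest of their group. The sample at the end of the range stood apart in 12 of 52 sets of values. Chance gives about 1 in 20 for unselected, independent sets, and that share does not apply here, because 5 of the genes were chosen for their difference between the classes and several values come from the same sample.

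LP day 1 sample 2, a PRL-rich sample, stood above the other LP day 1 samples in 5 genes. It had 41.7 CPM of ASB4 (next highest 18.1 CPM), 26.8 CPM of SLC17A9 (12.6 CPM), 314 CPM of POU1F1 (117 CPM), 52218 CPM of GH1 (18643 CPM), and 908 CPM of SCG3 (628 CPM). LP day 7 sample 2, the only PRL-rich sample of its group, stood above the rest in 3 genes, with 35.7 CPM of ASB4 (17.7 CPM), 338 CPM of COL5A2 (146 CPM), and 35.1 CPM of SLC17A9 (17.2 CPM). LP day 7 sample 3, which is PRL-poor, had 770 CPM of FSHB (472 CPM) and 6351 CPM of LHB (3619 CPM), both gonadotropin subunits. SP sample 5, also PRL-poor, had 43.5 CPM of POU1F1, below the next lowest SP sample (137 CPM). LP day 7 sample 6 had a total count of 2741520, below the next lowest of its group (3332930).

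ENSOARG00000008517 differed between groups in its class effect by the interaction test (FDR 8.17e-05, edgeR), with SP samples 1 and 5 below the other 21 samples.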

How the results depend on the processing

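The number of genes called between the classes (18) stayed within 1.5 times under the other normalizations, filters, and depth, parity, or library-set covariates, with 14 to 22 genes. Library size alone gave 15 higher and 3 lower genes in place of 17 and 1. It was 53 with DESeq2, 10 with limma voom, 61 with the continuous share, 3 at an FDR under 0.01, and 0 with a split at each group's own median (1325 genes at an unadjusted p under 0.05, edgeR). Leaving out 1 sample gave 5 to 25 genes. Leaving out LP day 1 gave 0 (800 genes at an unadjusted p under 0.05, edgeR), LP day 28 gave 2, and SP gave 2. Set A alone gave 0, set B 5, odd numbers 0 (857 at an unadjusted p under 0.05, edgeR), and even numbers 4. These subsets hold fewer samples, and in set B and among odd or even numbers some groups held only PRL-rich or only PRL-poor samples. With the sample number as a replicate block, 4 genes were called, 3 of them among the 18, and FSHB was 1 list member called; 8 of 23 samples correlated best with a sample of their own number, and the block takes up degrees of freedom.

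All 18 called genes kept their direction under all 47 alternatives, and 302 of 846 values no longer passed. The alternatives reuse the samples on which the 18 were picked, and the stricter FDR is applied to the main fit itself. Of 7610 values of other named genes, 38 newly passed and 591 changed sign without passing. The number of list members called was 0 and became 1 with library size alone, no filter, the library set as a covariate (FSHB in each), or set B alone (POMC), 2 without the group label (FSHB and SCG3) or without LP day 7 (FSHB and DIO2), and 3 with DESeq2 or the continuous share. Leaving out 1 sample gave 0 to 2. The continuous fit gave 29 to 127 genes when 1 sample was left out. The interaction called 3 genes with a likelihood ratio test in DESeq2 and was not refitted with samples left out. Detected genes differed by -43.4 after thinning and by 183 without it, in favor of PRL-rich samples (p = 0.803, exact permutation test). The causes of these differences were not tested. Counting error in LP day 1 sample 4 limits genes at or below 9.84 CPM there.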
